A study of Mus musculus with 4 samples.

Results

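The 10 imprinted genes *Igf2*, *H19*, *Kcnq1ot1*, *Phlda2*, *Grb10*, *Peg3*, *Dlk1*, *Meg3*, *Plagl1* and *Peg10* were examined for H3K27me3 in yolk sac (YS) erythro-myeloid progenitors (EMPs), out of 30751 protein-coding, lincRNA and antisense genes. They were chosen by name as well-known imprinted genes, at a time when earlier results of these data were known. For each gene, every H3K27me3 peak in the gene or within 10 kb on either side was collected from the peak lists of 2 libraries, and genes without a peak were kept. EMPs are the KIT+ CD41+ CD16/32+ cells of the YS, a wave of blood progenitors that arises in the embryo before stem cells do. The cells came from E10.5 C57BL/6 embryos. Their genotype label reads Ezh2fl/fl; Tie2-Cre+/+ and also wild type, and the study's text calls these cells WT. Floxed *Ezh2* with an active Tie2-Cre, which is driven from an endothelial promoter, would delete *Ezh2*, and the peak lists hold no measure of that deletion. The series asked which genes carry the mark that Ezh2 deposits, using CUT&RUN, in which an antibody directs a nuclease to cut out the DNA around the mark. It holds 4 libraries, IgG control and H3K27me3 from 500 EMPs and from 15000 EMPs, 1 library per group.

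The 500-EMP list held 10223 peaks over 5946494 bp with a median width of 363 bp, and the 15000-EMP list held 15282 peaks over 23956865 bp with a median width of 770 bp. The libraries were separate experiments that differed in cell number, amplification cycles (17 and 16), read length (76 and 59 bp), sequencer, sequencing depth and alignment rate (both stated to be lower for 500 EMPs) and the p threshold of the peak caller (0.01 and 0.05), and these cannot be told apart. Each list gives positions only, with no height or read count, so the reads behind a peak are unknown, no difference could be tested, and a gene without a peak is a gene where none was called. IgG values were not analysed here. Of 10 genes of EMP and blood identity, including *Kit*, *Itga2b* (CD41) and *Runx1*, 1 had a peak within 10 kb in each list, at *Fcgr3*, the gene of the gate marker CD16, and none had one within 3 kb of a start. Over all genes 13.5% and 22.5% had a peak within 10 kb and 9.56% and 16.0% within 3 kb of a start. Of 4 endothelial genes, *Pecam1* had a peak within 10 kb in the 500-EMP list and *Kdr* in the 15000-EMP list.

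Imprinted genes are expressed from the allele of 1 parent only. At most such genes the choice is inherited as DNA methylation laid down in egg or sperm at an imprinting control region, which often governs a cluster of genes through a long noncoding RNA or an insulator. H3K27me3 is the repressive histone mark of Polycomb repressive complex PRC2, whose catalytic subunit is Ezh2. At developmental genes it can cover both alleles of CpG-rich starts. At some imprinted clusters, in particular around *Kcnq1ot1* in extraembryonic tissue, it is known to mark the silent allele. The peak lists carry no allele information, so a peak at an imprinted gene may lie on either parental copy or on both.

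The sequences below are promoters on which the following peaks bear, from 250 bases before to 50 after a start, taken from RefSeq (GRCm38.p6, the assembly of mm10) and written 5′ to 3′ on the strand of the gene with every CpG in capitals. The pair from *Grb10* is shown because the CpG-dense promoter lay outside the peaks and the CpG-poor one lay under them. *Phlda2* and *Meg3* are shown as starts fully covered in the 15000-EMP list, and *Kcnq1ot1* as a start that lay far from any peak.
*Grb10*, chr11:12037371-12037670, minus strand: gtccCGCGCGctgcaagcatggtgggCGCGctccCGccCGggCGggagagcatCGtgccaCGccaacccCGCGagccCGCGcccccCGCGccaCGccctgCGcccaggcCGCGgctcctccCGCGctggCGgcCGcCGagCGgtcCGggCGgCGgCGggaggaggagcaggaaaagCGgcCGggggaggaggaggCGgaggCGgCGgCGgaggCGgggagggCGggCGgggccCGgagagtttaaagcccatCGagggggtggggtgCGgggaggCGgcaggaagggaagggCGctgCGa
*Grb10*, chr11:12027922-12028221, minus strand: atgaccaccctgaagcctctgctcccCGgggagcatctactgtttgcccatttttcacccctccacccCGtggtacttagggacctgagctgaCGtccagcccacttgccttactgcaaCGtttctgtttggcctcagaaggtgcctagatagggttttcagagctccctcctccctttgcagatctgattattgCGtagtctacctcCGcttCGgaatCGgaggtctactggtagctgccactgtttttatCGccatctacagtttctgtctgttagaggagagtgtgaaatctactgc
*Phlda2*, chr7:143502475-143502774, minus strand: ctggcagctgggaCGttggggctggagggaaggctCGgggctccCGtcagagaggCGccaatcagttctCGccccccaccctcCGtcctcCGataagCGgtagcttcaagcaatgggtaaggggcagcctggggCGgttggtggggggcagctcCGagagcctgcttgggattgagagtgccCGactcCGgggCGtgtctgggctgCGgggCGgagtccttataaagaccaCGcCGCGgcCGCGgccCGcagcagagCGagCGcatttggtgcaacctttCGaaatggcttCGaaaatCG
*Meg3*, chr12:109540746-109541045, plus strand: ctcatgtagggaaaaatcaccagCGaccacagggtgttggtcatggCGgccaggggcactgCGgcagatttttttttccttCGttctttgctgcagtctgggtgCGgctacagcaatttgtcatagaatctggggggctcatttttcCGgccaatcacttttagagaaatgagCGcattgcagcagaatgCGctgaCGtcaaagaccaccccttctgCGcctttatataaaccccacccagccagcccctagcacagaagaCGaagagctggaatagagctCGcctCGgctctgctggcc
*Kcnq1ot1*, chr7:143296498-143296797, minus strand: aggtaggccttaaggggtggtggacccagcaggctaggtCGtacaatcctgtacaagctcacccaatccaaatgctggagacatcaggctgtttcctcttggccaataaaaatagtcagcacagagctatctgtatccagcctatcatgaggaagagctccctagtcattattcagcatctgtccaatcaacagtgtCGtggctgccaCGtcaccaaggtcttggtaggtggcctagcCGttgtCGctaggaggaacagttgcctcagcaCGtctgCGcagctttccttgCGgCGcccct

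H3K27me3 peaks lay at *Igf2*, *Phlda2*, *Grb10* and *Dlk1* in both libraries, although *Phlda2* had no peak of at least 500 bp with 500 EMPs. *Peg3*, *Meg3*, *Plagl1* and *Peg10* had a peak in the 15000-EMP list only. *H19* and *Kcnq1ot1*, a pair of long noncoding RNAs, had none in either. With the gene and 10 kb flanks as the window, 4 of 10 genes had a peak with 500 EMPs against 13.5% of all genes, and 8 of 10 with 15000 EMPs against 22.5% of all genes. The windows of the 10 genes had a median length of 41295 bp and those of all genes 33220 bp. Within 3 kb of any annotated transcript start, 4 genes had a peak with 500 EMPs (9.56% of all genes) and 7 with 15000 EMPs (16.0% of all genes), *Peg10* dropping out. In both lists the share of the 10 genes was above that of all genes, a description of a list chosen by name and not a test. Of the 4 genes expressed from the maternal allele by textbook assignment (*H19*, *Phlda2*, *Grb10*, *Meg3*), 2 had a peak with 500 EMPs and 3 with 15000 EMPs. Of the 6 expressed from the paternal allele, 2 and 5 did.

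**Figure D1:**
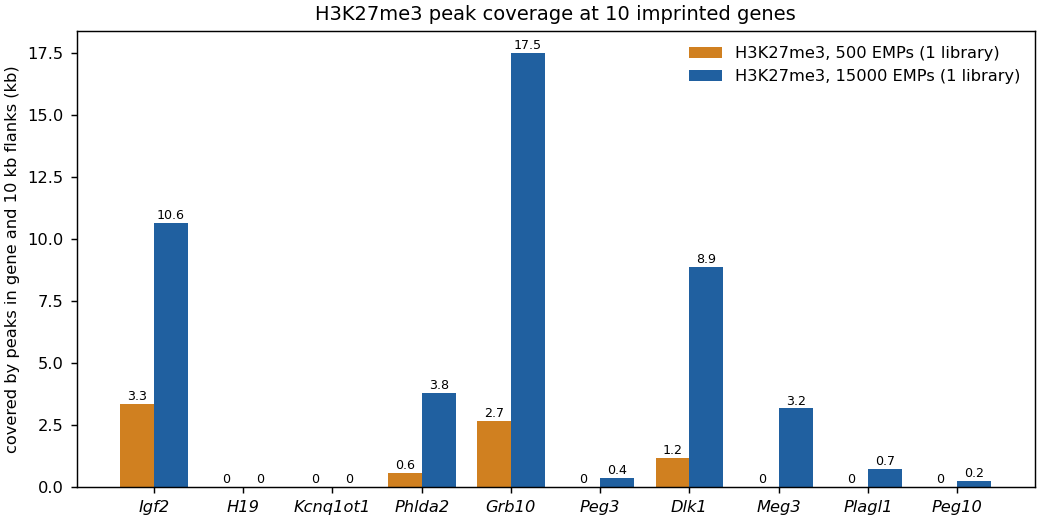
Length of DNA covered by H3K27me3 peaks (y axis, kb) in each gene and its 10 kb flanks, for the library of 500 EMPs (orange) and of 15000 EMPs (blue), 1 library each, so there are no error bars. *Grb10* and *Igf2* held the most covered bases in the 15000-EMP list (17513 and 10644 bp), and *H19* and *Kcnq1ot1* held none in either list.

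The plot of covered length shows that the amount of marked DNA ran over a wide range among the genes that had a peak. *Igf2* had 3349 bp under peaks with 500 EMPs and 10644 bp with 15000 EMPs. *Grb10* had 2663 and 17513 bp. *Dlk1* had 1163 and 8874 bp. *Phlda2*, the smallest gene, had 580 and 3806 bp. The windows differ in length, and as a share of the window *Phlda2* was above *Grb10* in both lists, at 2.68% against 2.08% with 500 EMPs and 17.6% against 13.7% with 15000 EMPs. *Meg3* had 3176 bp in the 15000-EMP list, and *Plagl1*, *Peg3* and *Peg10* had a single peak each of 729, 358 and 244 bp there. In the 6001 bp around the 5′ end of the gene, *Grb10* had 871 and 4780 bp covered, *Dlk1* 816 and 4271 bp, *Phlda2* 580 and 3806 bp and *Igf2* 576 and 2156 bp. In the 500-EMP list 91.3% of all genes had no covered base in this window, and the genes that had some had a median of 804 bp. In the 15000-EMP list these values were 85.1% and 2730 bp. *Grb10* and *Dlk1* were above the median of covered genes in both lists and *Igf2* below it in both, while *Phlda2* was below it with 500 EMPs and above it with 15000 EMPs. *Meg3* with 1627 bp and *Peg3* with 358 bp were below it with 15000 EMPs. The window is centred on the most 5′ start alone, which at *Igf2* lay outside the peaks of both lists. Of the 9 annotated *Igf2* starts, 7 lay under a peak with 15000 EMPs and 1 with 500 EMPs.

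*Igf2* encodes a fetal growth factor that is transcribed from the paternal allele from several promoters. The gene record (ENSMUSG00000048583, chr7:142650766-142666816, minus strand) had 7 peaks in each list, all inside the gene. They covered 20.9% of the gene with 500 EMPs and 66.3% with 15000 EMPs. The widest peak of the 15000-EMP list, 5776 bp at chr7:142659228-142665003, lay over 4 of the 9 annotated starts, and 3 of the 7 found with 500 EMPs fell at least partly within it. The widest 500-EMP peak was 1407 bp at chr7:142661645-142663051 and lay over 1 start. In all, 7 of 9 starts lay under a peak with 15000 EMPs and 1 with 500 EMPs. The most 5′ start, which opens the gene record, lay outside the peaks of both lists, and its RefSeq promoter (chr7:142666767-142667066) was 525 bp from the nearest 15000-EMP peak. Peaks separated by no more than 3 kb formed 1 domain of 13600 bp with 15000 EMPs, of which 78.3% was covered, and 1 of 11879 bp with 500 EMPs, of which 28.2% was covered.

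A microRNA gene lies within *Igf2*. The hairpin of *Mir483* (chr7:142654924-142654996) was covered over all 73 bp by a 1604 bp peak of the 15000-EMP list and was not covered in the 500-EMP list. Its mature products are printed with the seed, bases 2 to 8, in capitals, from RefSeq, since both lie under that peak and the deposited tables assign several *Igf2* peaks to this gene.
mmu-miR-483-3p: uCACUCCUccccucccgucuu
mmu-miR-483-5p: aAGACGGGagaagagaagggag
The deposited annotation paired 5 of the 7 peaks of *Igf2* in the 500-EMP list, and 6 of 7 in the 15000-EMP list, with *Mir483* or the antisense gene *Igf2os* and not with *Igf2*. The distances it gave for the peaks paired with *Igf2* were 4635 and 4025 bp with 500 EMPs and 3699 bp with 15000 EMPs. *Igf2* therefore does not pass a 3 kb limit on that distance, although peaks of both lists lay over its annotated starts. The peak of *Peg10* was paired with *Sgce*. The peak of *Plagl1* was paired with *Plagl1* but given at 30555 bp, although it lay 46 bp from the nearest annotated start. By the deposited pairing, 4 and 7 of the 10 genes were named at any distance (9.56% and 16.1% of all genes) and 3 and 5 within 3 kb (7.37% and 12.6% of all genes).

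**Figure D2:**
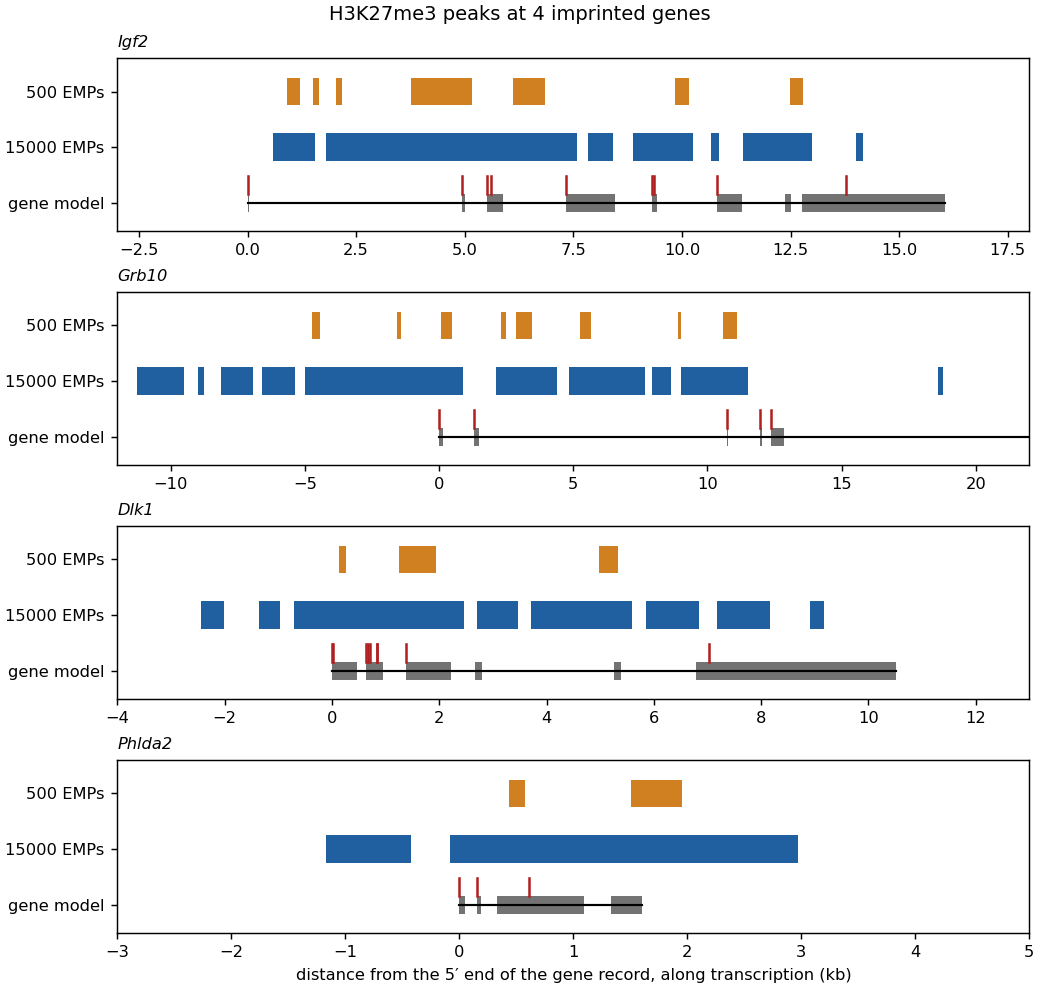
Position of H3K27me3 peaks at *Igf2*, *Grb10*, *Dlk1* and *Phlda2*, by distance from the 5′ end of the gene record along transcription (x axis, kb, a different scale for each gene). Boxes are peaks of the 500-EMP (orange) and 15000-EMP (blue) lists, grey boxes are exons, red ticks are annotated transcript starts, and *Grb10* is drawn for its 5′ part only. Each 500-EMP peak overlaps a 15000-EMP peak, and at *Grb10* the second start from the 5′ end falls in a gap between the 15000-EMP peaks.

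*H19*, the maternally expressed long noncoding RNA downstream of *Igf2* (ENSMUSG00000000031, chr7:142575529-142578143, minus strand), had no peak. The nearest was 75895 bp away with 500 EMPs and 74500 bp with 15000 EMPs, in *Igf2* in both lists. The 72622 bp between the genes, which hold the imprinting control region of the pair, contained no peak in either list. *H19* sat in a stretch without peaks of 540035 bp with 500 EMPs and 279882 bp with 15000 EMPs. *Mir675*, the microRNA gene inside *H19*, was uncovered in both lists. The marked DNA of this cluster thus lay in *Igf2*, with 7 peaks in each list and none elsewhere between 10 kb beyond *H19* and 10 kb beyond *Ins2*.

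*Kcnq1ot1* is the antisense noncoding RNA whose promoter is the control region of the *Kcnq1* cluster, and it is transcribed from the paternal allele, on which its neighbours are largely silent. The gene record (ENSMUSG00000101609, chr7:143203458-143296549, minus strand) spans 93092 bp and had no peak in either list. The peak-free stretch around it measured 312354 bp with 500 EMPs and 306655 bp with 15000 EMPs, nearly the same span in both. On the side of its 3′ end the nearest peak lay at the start of *Kcnq1*, 94582 bp away with 500 EMPs and 93820 bp with 15000 EMPs. On the side of its promoter the nearest peak was 124682 bp and 119745 bp away. Its promoter, printed above, has 9 CpGs in 300 bases at 53.3% GC.

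**Figure D3:**
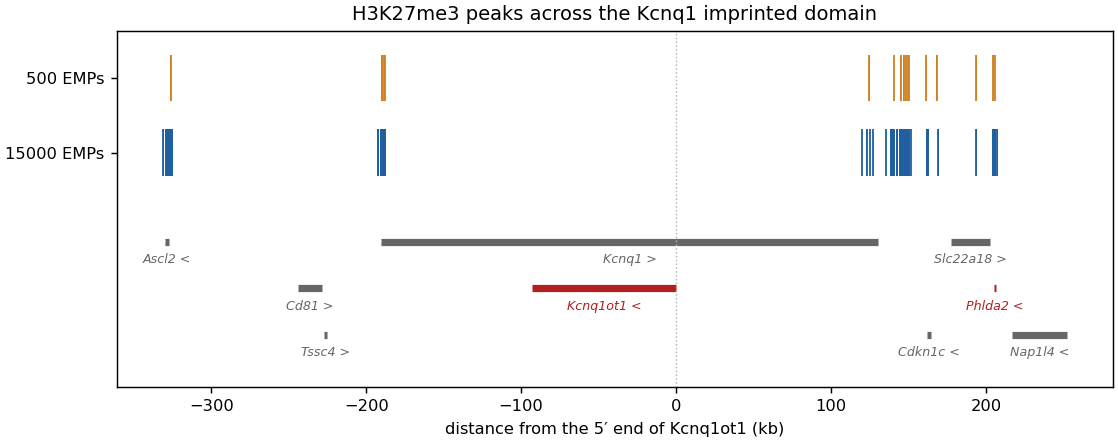
H3K27me3 peaks across the *Kcnq1* cluster by distance from the 5′ end of *Kcnq1ot1* (x axis, kb), with peaks of 500 EMPs in orange and 15000 EMPs in blue, drawn with a minimum line width. Bars are gene records (red for the described genes, > and < for plus and minus strand). No peak lies in a stretch of 306655 bp in the 15000-EMP list that contains all of *Kcnq1ot1*, and peaks stand at the *Kcnq1* start on one side and beyond the 3′ end of *Cdkn1c* on the other.

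Peaks resumed on either side of *Kcnq1ot1*, as the map of the cluster shows. From the promoter of *Kcnq1ot1* to *Phlda2*, 204995 bp, there were 11 peaks covering 3951 bp with 500 EMPs and 14 peaks covering 19375 bp with 15000 EMPs. Most lay between *Kcnq1ot1* and the 3′ end of *Cdkn1c*, the gene of a cell cycle inhibitor expressed from the maternal allele, with 8 and 11 peaks covering 3168 and 15260 bp. The widest of them was 7530 bp at chr7:143440291-143447820 with 15000 EMPs. In the window of *Cdkn1c* itself, 427 bp were covered with 500 EMPs and 3305 bp with 15000 EMPs. *Kcnq1*, a potassium channel gene, had 1799 and 9996 bp covered, lying at its start and near its 3′ end and not in its middle, where *Kcnq1ot1* lies. *Slc22a18*, a transporter gene between *Cdkn1c* and *Phlda2*, had 1019 and 4983 bp, in part from peaks of its neighbours. *Ascl2*, the gene of a transcription factor of trophoblast, had 796 and 6315 bp. *Cd81* and *Tssc4*, which lie between *Ascl2* and *Kcnq1*, had no peak within 10 kb in either list. Across the whole cluster, from 10 kb beyond *Ascl2* to 10 kb beyond *Nap1l4*, 1.09% of the DNA was covered with 500 EMPs and 5.66% with 15000 EMPs.

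*Phlda2*, which encodes a small pleckstrin homology protein that restrains placental growth, is expressed from the maternal allele at the far end of this cluster (ENSMUSG00000010760, chr7:143501545-143503150, minus strand, 1606 bp). A single 15000-EMP peak of 3058 bp at chr7:143500178-143503235 enclosed the whole gene and its 3 starts. A second of 748 bp lay 425 to 1172 bp before the gene. With 500 EMPs there were 2 narrow peaks, 140 bp within the gene at chr7:143502574-143502713 and 440 bp across its 3′ end at chr7:143501201-143501640, and 14.7% of the gene was covered. The printed promoter, with 26 CpGs at 65.7% GC, was covered over 300 of 300 bases with 15000 EMPs and 140 with 500 EMPs. *Phlda2* and *Grb10* were the genes with a promoter partly under a peak in both lists. A further peak stood just outside the 10 kb limit of *Phlda2*, 11015 bp away with 500 EMPs (149 bp wide) and 11074 bp away with 15000 EMPs (273 bp wide). The other peak between 10 and 15 kb from any of the genes was 1 of 817 bp, 13970 bp before *Grb10*, in the 15000-EMP list.

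*Grb10* encodes an adaptor that binds the insulin and IGF receptors and restrains growth. It is expressed from the maternal allele in most tissues and from the paternal allele in neurons. Its gene record (ENSMUSG00000020176, chr11:11930508-12038683, minus strand) spans 108176 bp, of which 2.05% was covered with 500 EMPs and 8.67% with 15000 EMPs. The peaks were gathered at the 5′ end. With 500 EMPs 8 peaks of 137 to 614 bp lay between 4751 bp before the 5′ end and 11102 bp after it. With 15000 EMPs 9 of 10 peaks lay between 11252 bp before and 11511 bp after it, and the other, 176 bp wide, began 18596 bp into the gene. Joined where no more than 3 kb apart, the 15000-EMP peaks formed a domain of 33013 bp at chr11:12027172-12060184 from 14 peaks, 68% covered, which ran beyond the 10 kb flank. The widest peak, 5896 bp at chr11:12037806-12043701, lay over the 5′ end of the gene.

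A gap of 1221 bp at chr11:12036585-12037805 interrupted this domain. Among neighbouring peaks in *Grb10* and its 10 kb flanks it was the widest of 8 gaps of up to 3 kb. Their median was 411 bp. Beyond these peaks the domain held a wider gap, from 11252 to 13970 bp before the gene, and the composition of gaps there was not examined. The gap of 1221 bp had 75.8% GC and 178 CpGs, an observed to expected CpG ratio of 1.02, and it held 1 annotated start. The other 7 of the 8 gaps had 32.2 to 44.8% GC and at most 5 CpGs. The CpG-dense promoter printed above, with 45 CpGs at 80% GC, lay in this gap, 136 bp from the nearest 15000-EMP peak and 551 bp from the nearest 500-EMP peak. The downstream promoter, with 9 CpGs at 52.3% GC, was covered over 166 bases with 500 EMPs and 300 with 15000 EMPs. GC-rich DNA amplifies and maps differently from the rest, and its part in the gap was not tested. At *Igf2* 1 of 6 gaps between neighbouring peaks, the narrowest at 258 bp, had an observed to expected CpG ratio above 0.6 (72.9% GC, 25 CpGs), and the widest, 1001 bp, had 42.8% GC and a ratio of 0.17. The 576 bp peak beside the narrowest gap had 60.9% GC and a ratio of 0.81. At *Dlk1* 1 of 7 gaps did, of 321 bp (65.4% GC, 25 CpGs), and the widest, 747 bp, had 50.6% GC and a ratio of 0.26.

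*Dlk1* encodes a transmembrane relative of Notch ligands and is expressed from the paternal allele, and *Meg3* is the maternally expressed long noncoding RNA of the same cluster. *Dlk1* (ENSMUSG00000040856, chr12:109452823-109463336, plus strand) had 3 peaks with 500 EMPs and 8 with 15000 EMPs, covering 11.1% and 70% of the gene. The widest, 3161 bp at chr12:109452121-109455281, lay over 8 of its 9 starts. The 3 peaks of the 500-EMP list were 137, 679 and 347 bp wide, all inside the gene, and each overlapped a peak of the other list. The 15000-EMP peaks formed a domain of 11612 bp, 76.4% covered. Its RefSeq promoter was covered in full with 15000 EMPs and lay 81 bp from the nearest 500-EMP peak.

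*Meg3* (ENSMUSG00000021268, chr12:109541001-109571726, plus strand) had no peak within 10 kb with 500 EMPs, where the nearest was 82852 bp away in *Dlk1*. With 15000 EMPs it had 2. A peak of 1627 bp at chr12:109539915-109541541 lay over the 5′ end and 3 of the 11 starts, and 1 of 1549 bp at chr12:109533455-109535003 lay 5998 to 7546 bp before the gene. The printed *Meg3* promoter was covered in full by the former. The remainder of the gene, including *Mir770* and *Mir1906-1*, was uncovered, so that 1.76% of the gene lay under a peak. Between *Dlk1* and *Meg3*, 77664 bp, there was no peak with 500 EMPs, and with 15000 EMPs the 2 peaks just described covered 2635 bp. Farther along the cluster, *Rtl1* and *Mirg* had no peak in either list and *Rian* had 3 with 15000 EMPs. *Dio3*, a thyroid hormone deiodinase gene at the other end, had 2688 bp covered with 500 EMPs and 9044 bp with 15000 EMPs. Covered DNA in the map of this cluster thus stood at *Dlk1* and *Dio3* in both lists. It also stood in an interval between *Mirg* and *Dio3* that the deposited table pairs with *3110009F21Rik*, with peaks of 2278 and 442 bp with 500 EMPs and 1 of 5882 bp with 15000 EMPs. The peaks of 2278 and 5882 bp were the widest of the mapped cluster in their lists.

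**Figure D4:**
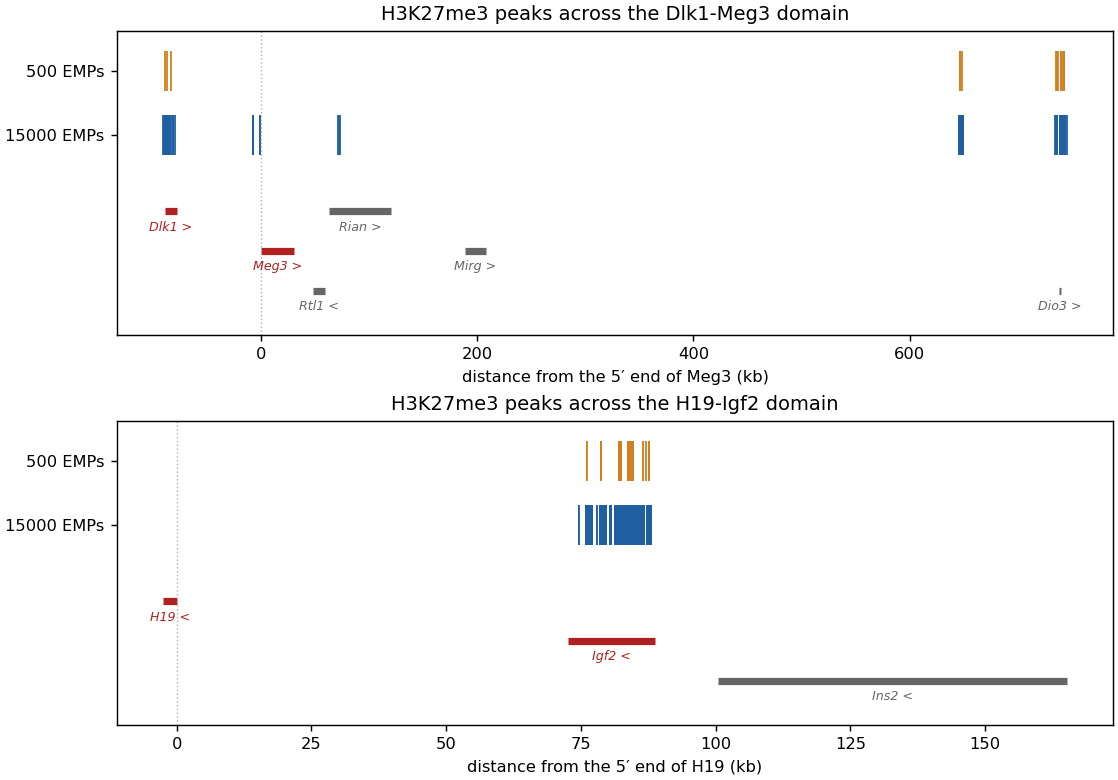
H3K27me3 peaks across the *Dlk1-Meg3* cluster (top) and the *H19-Igf2* cluster (bottom), by distance from the 5′ end of *Meg3* or *H19* (x axes, kb), with peaks of 500 EMPs in orange and 15000 EMPs in blue, drawn with a minimum line width. Bars are gene records (red for the described genes, > and < for plus and minus strand). Peaks of both lists stand at *Dlk1*, *Dio3* and *Igf2* and in the interval of the 5882 bp peak before *Dio3*, those at the *Meg3* start appear in the 15000-EMP list only, and *H19* has none.

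The other 3 genes, all expressed from the paternal allele, had no peak with 500 EMPs and 1 narrow peak each with 15000 EMPs. *Peg3*, a zinc finger gene (ENSMUSG00000002265, chr7:6703892-6730431, minus strand), had a peak of 358 bp at chr7:6731678-6732035, 1247 bp before its 5′ end and within *Usp29*, which starts close by on the opposite strand. *Plagl1*, a zinc finger transcription factor gene (ENSMUSG00000019817, chr10:13060504-13131694, plus strand), had a peak of 729 bp at chr10:13091059-13091787, 46 bp from the nearest annotated start and 178 bp from its RefSeq promoter, which has 26 CpGs at 70.7% GC. *Peg10*, a gene derived from a retrotransposon that is needed in placenta (ENSMUSG00000092035, chr6:4747306-4760517, plus strand), had a peak of 244 bp at chr6:4739731-4739974, 7332 bp before it and inside *Sgce*. With 500 EMPs the nearest peaks were 1647924 bp from *Peg3*, 1412933 bp from *Plagl1* and 981184 bp from *Peg10*. None of these 3 peaks lay over an annotated start of the gene, and each stands in a single library.

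Across the 13 RefSeq promoters that matched 8 of the genes, 2 lay at least partly under a peak with 500 EMPs and 7 with 15000 EMPs. Of 32851 promoters of all genes, 2.25% and 8.79% did. Taking at least 55% GC and an observed to expected CpG ratio of at least 0.6 as CpG-rich, 4 of the 13 qualified, and of these the promoters of *Phlda2* and 1 of *Igf2* were touched by a 15000-EMP peak while those of *Grb10* and *Plagl1* were not. Over all promoters, 13.1% of the 9951 CpG-rich ones and 6.91% of the 22900 others were touched by a 15000-EMP peak. The letters TGCCGC, the core read by the imprint-protecting zinc finger protein ZFP57, occurred on either strand in 4 of the 13 promoters and in 11.6% of all promoters. The share over all promoters differed by class, at 26% of the CpG-rich ones and 5.34% of the others. The 20 peaks of the genes in the 500-EMP list had a median GC content of 49.2% and the 32 of the 15000-EMP list 49.9%, against 49.1% and 49.2% over each whole list.

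The libraries shared the places of the narrower peaks and differed in how much was covered. With 500 EMPs these genes had 20 peaks, and each shared 1 bp or more with a peak found with 15000 EMPs (91.2% over the whole 500-EMP list), as did 97% of their bases. With 15000 EMPs they had 32 peaks, of which 11 (34.4%) were met by a peak found with 500 EMPs (32.2% over the whole 15000-EMP list), as were 16.1% of their bases. The median width of these peaks was 316 bp with 500 EMPs and 994 bp with 15000 EMPs. Every gene with a peak in the 500-EMP list had more covered bases in the 15000-EMP list, as the list as a whole did. The 4 genes marked in both libraries were also the 4 with the most covered bases in the 15000-EMP list.

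Among 31 neighbours of the 10 genes in the same clusters, 7 (22.6%) had a peak in the gene or within 10 kb with 500 EMPs and 15 (48.4%) with 15000 EMPs. Neighbouring windows can share peaks, so these are not independent of the 10 genes. Beside the genes already named, *Cobl*, next to *Grb10* and encoding an actin nucleator, had 1195 and 6873 bp covered, and *Calcr*, the calcitonin receptor gene of the *Peg10* cluster, had 274 and 4968 bp. *Ddc*, on the other side of *Grb10*, had no peak with 500 EMPs and 3082 bp with 15000 EMPs.

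Of 34 other imprinted genes elsewhere in the genome, 11 (32.4%) had a peak with 500 EMPs and 16 (47.1%) with 15000 EMPs, against 13.5% and 22.5% of all genes. Overlapping or adjacent genes of this list share peaks and were each counted, among them *Igf2r* with *Airn*, *Gnas* with *Nespas*, *Nnat* with *Blcap* and *Nap1l5* with *Herc3*. The most covered was *Zdbf2*, with 5188 bp and 18032 bp. *Igf2r*, the receptor that removes Igf2, had 1794 and 11141 bp, *Klf14* had 1114 and 9015 bp and *Rasgrf1* had 2132 and 8289 bp. The 6001 bp around the start of *Rasgrf1* was covered in full with 15000 EMPs. *Copg2* had a 296 bp peak with 500 EMPs and none with 15000 EMPs, the reverse of the usual order. *Magel2*, a gene of the Prader-Willi cluster, had none with 500 EMPs and 1100 bp with 15000 EMPs. Of 5 genes known for imprinting that depends on H3K27me3 inherited from the egg, *Sfmbt2* and *Smoc1* had peaks in both lists, with 1856 and 6158 bp and 577 and 2835 bp, and *Gab1*, *Slc38a4* and *Jade1* had none in either.

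**Figure D5:**
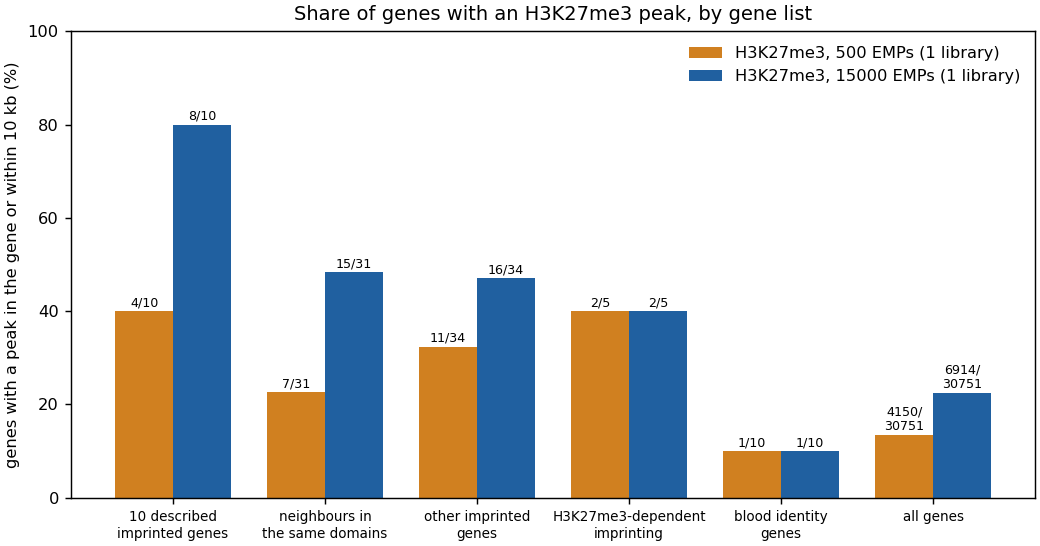
Percent of genes with an H3K27me3 peak in the gene or within 10 kb (y axis), for the 10 described genes, the other gene lists and all genes, with 500 EMPs in orange and 15000 EMPs in blue, 1 library each. Counts stand above the bars, and the 10 described genes (4 and 8 of 10) and the 3 other imprinted lists stand above all genes (13.5% and 22.5%). The blood identity list had 1 of 10 in each library, and the endothelial list (1 of 4 in each) is not drawn.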

How the data were processed

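H3K27me3 CUT&RUN was analysed from the deposited peak lists and annotated peak tables of 2 libraries, wild-type E10.5 YS EMPs at 500 and 15000 cells. Per the labels and methods, the authors aligned reads to mm10 with Bowtie2 2.2.1, used SAMtools 1.9 and deepTools 3.5.1, called broad peaks with MACS2 2.1.2 and paired peaks with genes in ChIPpeakAnno. The other values deposited by the authors and used here are peak positions and distances to genes, without scores. Signal tracks were not analysed here. The study's reporting summary prints the peak-calling command of each library under the other cell number; lists were used as labelled. The summary also states fewer reads and a much lower alignment rate for the 500-EMP library. The reads behind single peaks are not given in the files.

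Genes and starts came from GENCODE vM21 (chromosomes 1 to 19, X and Y). A peak counted with at least 1 bp in the gene and 10 kb flanks, or within 3 kb of a start. Python 3.11.15 and numpy 2.4.6 were used, and the interval code was checked on simulated intervals. With 1 library per group, no test or error was available. All 10 genes were named. Genes of the other lists could be named where they had a peak, or where 12 or fewer had none, and the rest were counted. Genes without a peak drawn in the cluster maps were named for their place after their values were seen. Members and lists were chosen with earlier results of these data known. 33 neighbours were listed, and *Phemx* and *Hymai* were unmatched. *H19* and *Peg10* had no RefSeq promoter match. Alternative flanks, widths, overlaps and joining were tried.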

Additional observations from a re-analysis of the deposited data

How the results depend on the processing

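Of 54 alternative values for 12 counts and sums, 47 stayed within 1.5 times the value given and 7 did not. Over flanks, widths, overlap rules and the pairing with other genes, the number of the 10 genes with a peak ran from 3 to 4 with 500 EMPs and from 4 to 8 with 15000 EMPs. The lower value of 4 came from keeping 15000-EMP peaks that overlap a 500-EMP peak, a setting that also took the genes of the other imprinted lists, neighbours included, from 33 to 19. Peaks of at least 500 bp left 10 of 20 of those genes with 500 EMPs and took the summed covered length of the 10 genes from 7755 to 3961 bp. Joining peaks within 3 kb took it to 28158 bp. The share of 15000-EMP peaks shared with the other list was 34.4%, 56.2% where peaks within 1 kb counted as shared, and 0.0% where at least 50% of the peak had to be covered. For single genes, 20 of 36 alternative covered lengths stayed within the same limit. The alternative that left out peaks paired by the deposited table with another gene alone was chosen after seeing the data. No paired analysis was possible because each group had 1 library, and no stricter peak threshold could be set because the lists hold no scores.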
